A study of Mus musculus with 4 samples.

Results

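The NR4A orphan nuclear receptors are encoded by 3 genes, Nr4a1, Nr4a2 and Nr4a3, and all 3 were found by symbol among 55401 gene models in the deposited tables. The family was selected on its measured FPKM values in these same data, in cells with and without angiotensin II (Ang II). Its levels under the 2 treatments are therefore given as a description, with no test. Group 2 innate lymphoid cells (ILC2s), tissue lymphocytes that release type 2 cytokines, had been purified from lungs of C57BL/6 mice and stimulated for 6 h. One group received IL-33, the epithelial alarmin that activates these cells, and the other received IL-33 together with Ang II, a peptide hormone that acts on blood pressure and the adrenal cortex. Each group had 2 samples, made from 500 cells per condition by the protocol, both groups carry IL-33, and no unstimulated cells are analysed here. The sources used here give neither doses, nor the age of the mice, nor the number of animals behind each sample. Transcript levels are FPKM, sequenced fragments scaled to transcript length and to the size of the library, so levels of different genes can be set side by side per length.

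NR4A proteins (Nur77 from Nr4a1, Nurr1 from Nr4a2, NOR1 from Nr4a3) are transcription factors of the nuclear receptor superfamily. They are called orphans because the ligand pocket is filled by bulky side chains, so their activity depends mainly on how much protein a cell makes. Their genes are immediate early genes, transcribed soon after calcium, cyclic AMP, protein kinase C or antigen receptor signals reach CREB, MEF2 and related factors at their promoters. The proteins bind the NBRE element as monomers, paired elements as dimers, and Nur77 and Nurr1 also bind as partners of RXR. In adrenal cortex Ang II is a classical inducer of the family, and in T cells the family is known for its ties to antigen receptor signalling, tolerance and exhaustion.

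The promoters are shown first, since the CREB recognition element is the best known input to all 3 genes. Windows from 250 bases before to 50 bases after the start site came from RefSeq (GRCm38.p6, the same assembly as mm10), with a window for each gene. The runs below stop before the first base of any exon in GENCODE release M21, and capitals mark the CRE core, TGACG on either strand, which is the sequence that CREB and ATF proteins recognise. Nr4a1 is shown at chr15:101266596-101266845 on the plus strand, Nr4a2 at chr2:57124004-57124253 on the minus strand and Nr4a3 at chr4:48045055-48045152 on the plus strand, each 5′ to 3′.
Nr4a1: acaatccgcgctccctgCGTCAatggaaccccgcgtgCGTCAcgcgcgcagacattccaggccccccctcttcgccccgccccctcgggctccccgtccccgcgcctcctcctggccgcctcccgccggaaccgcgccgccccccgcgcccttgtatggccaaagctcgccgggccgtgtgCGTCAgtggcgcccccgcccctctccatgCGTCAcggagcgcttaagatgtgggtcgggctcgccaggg
Nr4a2: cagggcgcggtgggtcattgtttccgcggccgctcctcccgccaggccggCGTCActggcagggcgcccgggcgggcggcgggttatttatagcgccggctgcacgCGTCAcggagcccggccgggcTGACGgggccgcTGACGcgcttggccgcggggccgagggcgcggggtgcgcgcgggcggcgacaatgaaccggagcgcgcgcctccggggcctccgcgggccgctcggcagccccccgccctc
Nr4a3: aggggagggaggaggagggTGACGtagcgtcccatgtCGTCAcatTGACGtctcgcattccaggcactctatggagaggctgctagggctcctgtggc

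Each of the 3 windows held 4 CRE cores. In Nr4a3 only 3 of them are printed, because the fourth lies past the first start annotated in GENCODE. Of 32851 RefSeq windows of the same length, 20.8% held at least 1 CRE core and 0.231% held 4 or more. Windows of the NR4A genes were rich in G and C, at 72.3% for Nr4a1, 81.7% for Nr4a2 and 64.7% for Nr4a3. Among the 6218 windows with at least the GC content of Nr4a3, 0.563% held 4 or more CRE cores. No window of the family had the full palindrome TGACGTCA, which 1.79% of all windows held and which contains the core. No window had the NBRE AAAGGTCA (1.51% of windows), the AP-1 site TGANTCA (7.81%) or a CArG box (1.63%), all searched on both strands. Nr4a2 alone had a TATA box match, TATAAA (13.6% of windows), which lies on the strand opposite to the gene. It spans positions -164 to -159 from the start and overlaps a MEF2 box (3.19%) at -167 to -158. An NFAT core, GGAAA (61.3%), was likewise found in Nr4a2 alone. A match describes letters in a window of this size, and protein binding was not measured.

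**Figure D1:**
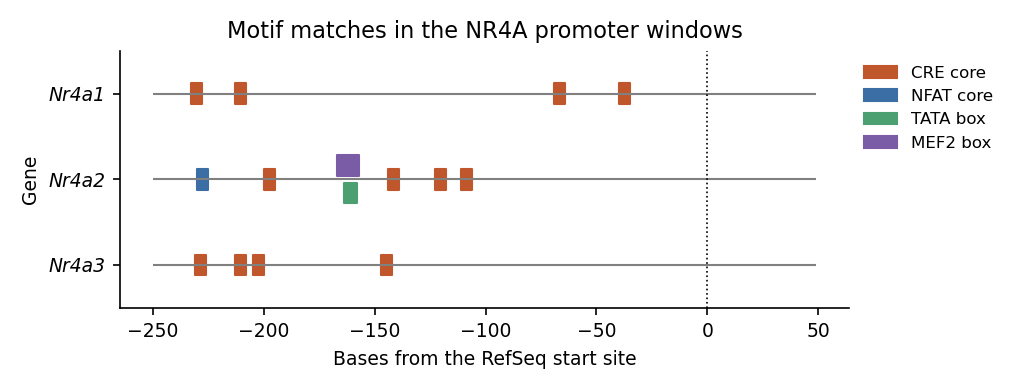
Positions of motif matches in the 3 promoter windows, with the distance from the RefSeq start site in bases on the x axis and a line for each gene. Each gene has 4 CRE cores, spread over positions -233 to -36 in Nr4a1, -200 to -107 in Nr4a2 and -231 to -143 in Nr4a3, and only Nr4a2 has TATA, MEF2 and NFAT matches.

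The genes lie on separate chromosomes of mm10. Nr4a1 (ENSMUSG00000023034) runs from 101254269 to 101274795 on chromosome 15, Nr4a2 (ENSMUSG00000026826) from 57106830 to 57124003 on chromosome 2, and Nr4a3 (ENSMUSG00000028341) from 48045153 to 48086447 on chromosome 4. GENCODE release M21 has 0 genes that overlap any of them, on either strand. The printed Nr4a1 window lies inside the gene, because a transcript with a farther start begins upstream of it. Coding sequences were alike but not near-identical: aligned bases were 69.1% identical between Nr4a2 and Nr4a3, 67.2% between Nr4a1 and Nr4a2 and 63.8% between Nr4a1 and Nr4a3. The longest exact run shared by any pair was 27 bases, between Nr4a2 and Nr4a3. Of the stretches of 50 bases in their transcripts, 0 of 3499 in Nr4a1 and 0 of 4146 in Nr4a2 occurred in transcripts of another gene. In Nr4a3 3 of 5986 did, all in Dcdc2a.

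Before the levels are read, the libraries need a description. Over the 9215 genes that averaged 1 FPKM or more (the genes tested), the IL-33 libraries differed from each other by a median of 0.05 on the log2(FPKM + 1) scale. The Ang II libraries differed from each other by 1.22, as much as libraries of different groups (1.16 to 1.19). For this reason the mean of the IL-33 pair entered the fits as 1 sample, and sampling noise could not be computed for it. The pair may be 1 library measured again, which the files do not settle. Both Ang II columns come from a table listed under 1 of the samples, and were assigned by their names. Haemoglobin transcripts made up 5.83% and 5.78% of summed FPKM in that pair against 0.897% and 0.401% with Ang II. Counts are not in the files used, so the sequencing depth is unknown.

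Nr4a1 stood at 32.3 and 30.9 FPKM under IL-33 alone, against 519 and 321 FPKM with Ang II. Both Ang II values lay far above both IL-33 values, at 16.4 and 10.2 times the IL-33 mean. The mean difference was 3.65 on the log2(FPKM + 1) scale, with 3.99 and 3.30 in the separate Ang II libraries (SD 0.49, n = 2). With IL-33 the Nr4a1 level ranked 1928 and 2002 among the 9215 genes, and with Ang II it ranked 116 and 185. Because whole samples were lysed, more RNA per cell and more cells expressing the gene cannot be told apart.

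Nr4a2 stood at 10.3 and 10.95 FPKM under IL-33 alone, against 90.7 and 31.2 FPKM with Ang II. The groups did not overlap, but Ang II replicate 1 was 2.90 times replicate 2. The ratios to the IL-33 mean were 8.54 and 2.94, and the mean difference was 2.23 on the log2(FPKM + 1) scale (SD 1.07, n = 2). The Nr4a2 level ranked 4075 and 3973 with IL-33 and 832 and 1889 with Ang II.

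Nr4a3 stood at 1.52 and 1.47 FPKM under IL-33 alone, against 19.05 and 1.80 FPKM with Ang II. Ang II replicate 1 alone was clearly above the IL-33 libraries, at 12.7 times their mean, while replicate 2 was at 1.20 times. The mean difference of 1.59 on the log2(FPKM + 1) scale had an SD of 2.01 (n = 2), larger than the difference itself. It came to 3.01 in replicate 1 and to 0.17 in replicate 2, so the higher mean of Nr4a3 rests on replicate 1. The Nr4a3 level ranked 6544 and 6578 with IL-33 and 2807 and 6623 with Ang II. In Ang II replicate 2 it thus ranked slightly below its place in both IL-33 libraries. At these low levels the scale with 1 FPKM added understates ratios.

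**Figure D2:**
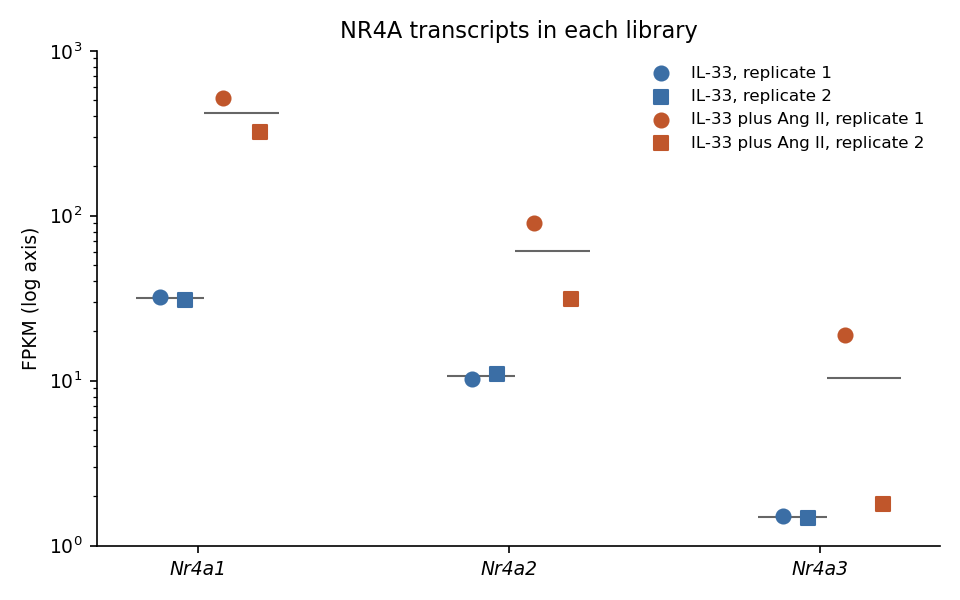
FPKM of Nr4a1, Nr4a2 and Nr4a3 on a log axis, with a point for each library (circles replicate 1, squares replicate 2) and a line at each group's mean. The IL-33 points coincide, both Ang II points are higher for Nr4a1 and Nr4a2, and for Nr4a3 Ang II replicate 2 (1.80 FPKM) lies beside the IL-33 values.

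All 3 genes had both Ang II libraries above both IL-33 libraries. Of all genes tested, 24.4% had this pattern and 33.5% the opposite one, and since the family was chosen for it, its count is no evidence. In all 4 libraries the order was the same, Nr4a1 above Nr4a2 above Nr4a3. In the IL-33 libraries Nr4a1 was 3.14 and 2.82 times Nr4a2, and Nr4a2 was 6.76 and 7.45 times Nr4a3. Whether these neighbours in the order differ beyond replicate error cannot be read from so near-identical a pair. With Ang II Nr4a1 was 5.72 and 10.3 times Nr4a2, and Nr4a2 was 4.76 and 17.4 times Nr4a3. Nr4a1 made up 73.2% and 71.3% of the family's summed FPKM with IL-33, and 82.5% and 90.7% with Ang II. Nr4a2 made up 23.3% and 25.3% with IL-33 and 14.4% and 8.82% with Ang II. The summed level was 44.1 and 43.3 FPKM with IL-33 and 628 and 354 FPKM with Ang II.

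The Ang II libraries were ordered alike for the family, replicate 1 above replicate 2, by 1.62 times for Nr4a1, 2.90 times for Nr4a2 and 10.6 times for Nr4a3. The lower the gene's level, the larger this gap was, though with 3 genes that is only their order. Among 4514 genes at 1 FPKM or more in both Ang II libraries, 32.1% had a larger ratio of replicate 1 to replicate 2 than Nr4a1. For Nr4a2 that share was 12.8% and for Nr4a3 1.17%. As for the difference from IL-33 in each Ang II library, 4.76% of the tested genes exceeded Nr4a1 in replicate 1 and 8.62% in replicate 2. For Nr4a2 the shares were 8.77% and 22.5%, and for Nr4a3 8.68% and 42.3%.

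The nearest protein-coding neighbours, looked up after the family's values were known, did not share the pattern in both Ang II libraries. Atg101, an autophagy gene 9477 bases past Nr4a1, stood at 98.8 and 96.7 FPKM under IL-33 alone, against 37.1 and 0.34 FPKM with Ang II. Grasp, 21513 bases before Nr4a1, was listed at 0 in 3 libraries and at 32.2 FPKM in Ang II replicate 1. Sec61b, the neighbour before Nr4a3, stood at 253 and 242 FPKM against 265 and 207 FPKM. The neighbours of Nr4a2 (Kcnj3 and Gpd2) and Stx17 past Nr4a3 had a mean below 1 FPKM.

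Within the superfamily of 49 nuclear receptor genes, 16 had a mean of at least 1 FPKM, the NR4A genes among them, and 21 were listed at 0 in all 4 libraries. A listed 0 need not mean absence, since the depth is unknown. Polr2a, the gene of the large RNA polymerase II subunit, stood at 5.64 and 6.37 FPKM with IL-33. It was near 0, at 0.05 FPKM, in both Ang II libraries. Named after its values were seen, it bears on the Ang II libraries only. With IL-33 Nr4a1 ranked 4 among the receptors, after Nr1h2 (LXR beta), Rora and Nr3c1 (the glucocorticoid receptor). Its IL-33 values adjoined those of Nr3c1 (32.5 and 33.5 FPKM). With Ang II it ranked 1 in both libraries. Nr4a2 ranked 6 with IL-33, and 2 and 5 with Ang II, while Nr4a3 ranked 9 with IL-33, and 5 and 15 with Ang II. The family's share of all nuclear receptor FPKM was 18.6% and 18.0% with IL-33 and 77.0% and 61.6% with Ang II.

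Of the 13 other receptors tested, 6 were higher in both Ang II libraries (46.2%) and 3 lower in both (23.1%). For 7 of the 13 the IL-33 mean was under 1 FPKM, with 4 of the 6 higher genes among them. These 7 passed the filter on low values only through Ang II, so a higher Ang II mean was fixed in advance. The median difference of 1.21 on the log2(FPKM + 1) scale is therefore no measure of a shift of the superfamily, and it was 0.15 at a mean of at least 5 FPKM. None passed an adjusted p of 0.05. Rora, which encodes a receptor that ILC2s need, stood at 58.8 and 61.4 FPKM under IL-33 alone, against 60.4 and 74.4 FPKM with Ang II. Its groups overlapped. Pparg, which encodes a lipid-sensing receptor that partners RXR, stood at 17.5 and 16.6 FPKM against 65.6 and 65.1 FPKM. Its difference of 1.88 was alike in both Ang II libraries, and its adjusted p by limma was 0.27. Nr3c1 and Nr1h2, named after their values were seen, went the other way, Nr3c1 at 9.08 and 7.08 FPKM with Ang II and Nr1h2 at 17.5 and 35.8 FPKM against 75.8 and 76.6 FPKM.

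**Figure D3:**
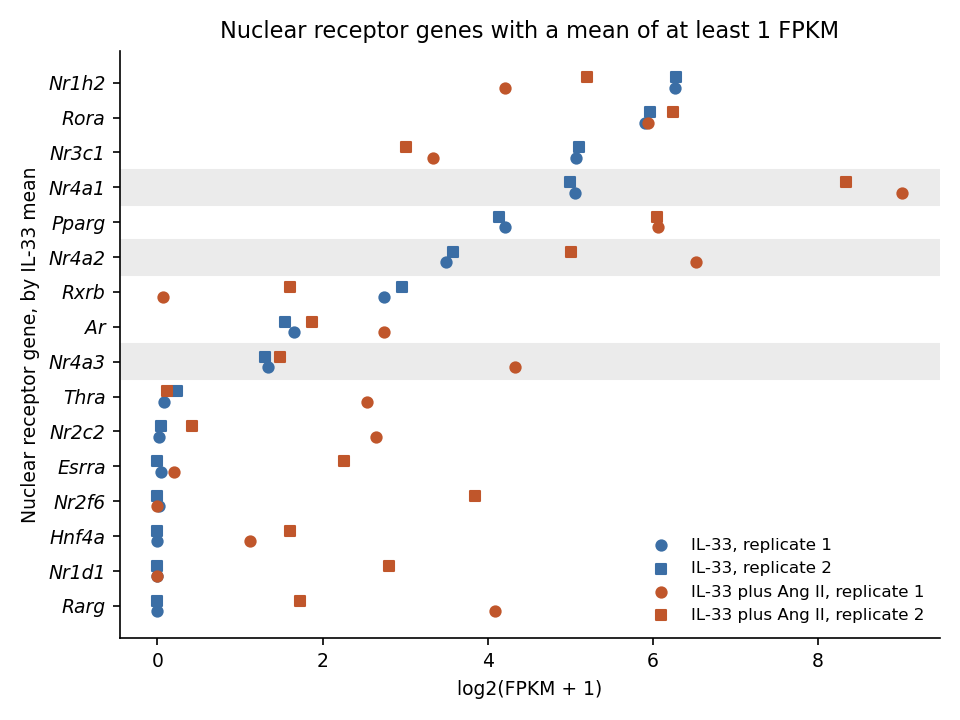
log2(FPKM + 1) of the 16 nuclear receptor genes that averaged 1 FPKM or more, ordered by IL-33 mean, with a point for each library and the NR4A genes on grey bands. Nr4a1 is the highest receptor in both Ang II libraries and ranks 4 with IL-33, and Nr2f6 and Nr1d1, listed at or near 0 with IL-33, are above 0 in only 1 Ang II library.

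Across all 9215 genes, limma with Benjamini-Hochberg adjustment called 0 genes higher and 0 lower with Ang II (0% each way), and the smallest adjusted p was 0.174. Without adjustment, p was under 0.05 for 257 genes higher (2.79% of those tested) and 996 lower (10.8%). With 1 IL-33 sample and 2 Ang II samples the fit has 1 residual degree of freedom. The lists that follow hold known inputs, partners and targets of the family. In each, 0 members passed the adjusted threshold in either direction, so they are described by values and counts. The share of a list with both Ang II libraries higher or lower stands beside 24.4% and 33.5% of all tested genes, and the median beside -0.00367. Members at an unadjusted p under 0.05 stand beside the 2.79% higher and 10.8% lower of all tested genes. Genes that passed the filter only through the group where they are high are counted beside each list.

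Genes that carry signals to NR4A promoters lay on both sides of the IL-33 level. Of 32 listed, 17 were tested, 6 were higher in both Ang II libraries (35.3%) and 3 lower in both (17.6%). Of these, 4 of the higher genes had an IL-33 mean under 1 FPKM and 1 of the lower an Ang II mean under 1 FPKM. The median difference was 0.13 on the log2(FPKM + 1) scale. Prkar1a, the regulatory subunit that restrains protein kinase A, stood at 302 and 298 FPKM against 179 and 350 FPKM. Map2k1 and Map2k2 encode the MEK kinases that activate ERK. Map2k1 stood at 102 and 105 FPKM against 140 and 92.7 FPKM, and Map2k2 at 24.6 and 26.2 FPKM against 26.6 and 42.8 FPKM. Ppp3r1, the regulatory subunit of the calcium-dependent phosphatase calcineurin, stood at 6.58 and 5.97 FPKM against 23.7 and 31.5 FPKM, a difference of 1.96 (limma adjusted p = 0.43). The catalytic subunit gene Ppp3cb, named after its values were seen, was the only 1 of 17 tested genes at an unadjusted p under 0.05. It stood at 5.09 and 4.77 FPKM against 0.05 FPKM in both Ang II libraries, and passed the filter only through IL-33. Creb1 itself was low throughout, at 0.79 and 1.00 FPKM against 3.11 and 1.12 FPKM.

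Partners and coregulators of the receptors were 17 listed genes, of which 10 were tested, 2 were higher in both Ang II libraries (20%, 1 of them under 1 FPKM with IL-33) and 3 lower in both (30%, 1 of them under 1 FPKM with Ang II). Their median difference was -0.35 on the log2(FPKM + 1) scale. Hdac1 and Hdac2 encode histone deacetylases of corepressor complexes. Hdac1 stood at 65.4 and 65.0 FPKM under IL-33 alone, against 42.8 and 66.8 FPKM with Ang II, and Hdac2 at 10.6 and 10.5 FPKM against 36.0 and 9.63 FPKM. Trim28, a corepressor of zinc finger proteins that also binds NR4A proteins, stood at 20.2 and 20.4 FPKM against 8.51 and 25.8 FPKM. The groups overlapped for all 3 of these genes. Nrip1, a nuclear receptor corepressor, stood at 33.1 and 33.8 FPKM against 10.1 and 7.88 FPKM, a difference of -1.79 (limma adjusted p = 0.47). Of the RXR genes, named for their role, Rxrb stood at 5.67 and 6.81 FPKM against 0.05 and 2.03 FPKM. Rxra reached 1.17 FPKM in Ang II replicate 1 and was listed at 0 elsewhere, and Rxrg was listed at 0 in all 4 libraries. Hdac3, named after its values were seen, was the only 1 of 10 tested genes at an unadjusted p under 0.05. It stood at 9.87 and 11.2 FPKM against 0.07 and 0 FPKM, and passed the filter only through IL-33.

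Other target genes of CREB also lay on both sides. Of 20 listed, 13 were tested, 4 were higher in both Ang II libraries (30.8%, 1 of them under 1 FPKM with IL-33) and 2 lower in both (15.4%). The median difference was -0.01 on the log2(FPKM + 1) scale. Crem, which encodes a CREB family factor with a short inducible repressor form, stood at 193 and 195 FPKM against 325 and 283 FPKM, a difference of 0.64 (limma adjusted p = 0.54). Areg, the amphiregulin gene, stood at 7.38 and 7.51 FPKM against 217 and 344 FPKM, a difference of 5.02 (limma adjusted p = 0.17). It was the only 1 of 13 tested genes at an unadjusted p under 0.05. Id2, which all innate lymphoid cells need, stood at 741 and 746 FPKM against 760 and 489 FPKM. Nfil3, which encodes a repressor needed early in innate lymphoid development, stood at 166 and 160 FPKM against 320 and 69.6 FPKM. The groups overlapped for Id2 and Nfil3. CRE cores were found in the promoter windows of 11 of the 16 listed genes that have one, or 68.8%, against 20.8% of all windows. Among them were Areg and Nfil3. Windows of genes that cells in general use held a core in 7 of 12, or 58.3%.

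Early genes downstream of ERK and serum response factor were likewise mixed. Of 24 listed, 18 were tested, 7 were higher in both Ang II libraries (38.9%, 3 of them under 1 FPKM with IL-33) and 5 lower in both (27.8%). The median difference was 0.15 on the log2(FPKM + 1) scale. The AP-1 gene Fos stood at 99.5 and 100.1 FPKM against 221 and 242 FPKM, a difference of 1.20 (limma adjusted p = 0.30). Junb stood at 703 and 724 FPKM against 1208 and 768 FPKM, Jund at 406 and 417 FPKM against 397 and 203 FPKM, and the early gene Ier2 at 269 and 269 FPKM against 443 and 255 FPKM. Junb was higher and Jund lower in both Ang II libraries, while Ier2 overlapped. Of the 18 tested, 2 were at an unadjusted p under 0.05, Fos and Myc. Myc, noticed after its values were seen, stood at 0.07 and 0 FPKM against 22.8 and 34.5 FPKM. It passed the filter only through Ang II. Egr1, also named afterwards, lay beside Nr4a1 in both differences, at 3.75 and 3.04 against 3.99 and 3.30 on the log2(FPKM + 1) scale, but from 0.01 and 0 FPKM.

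**Figure D4:**
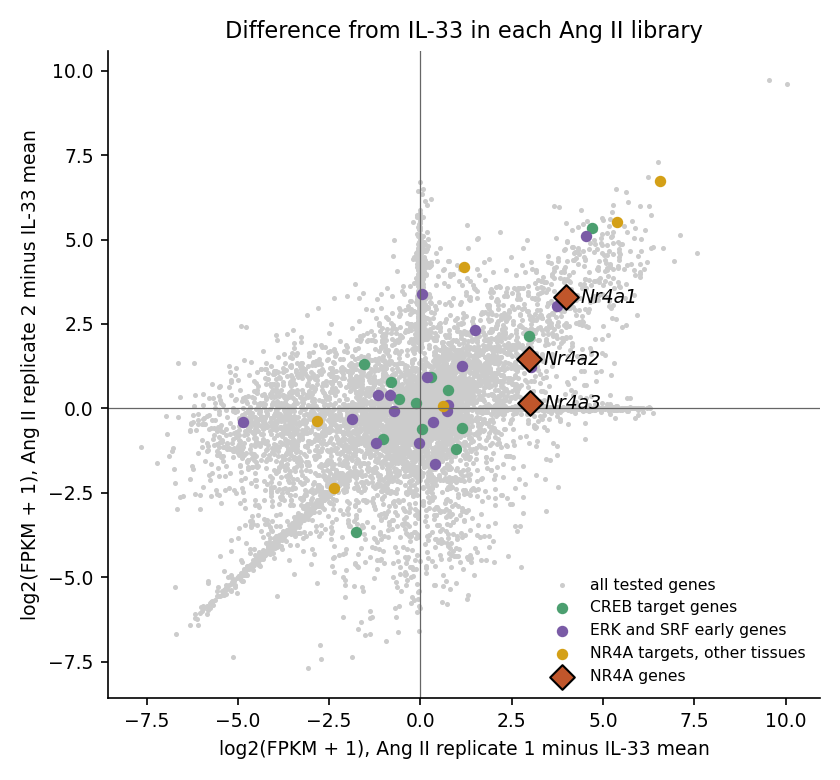
Difference of each tested gene from the IL-33 mean on the log2(FPKM + 1) scale, in Ang II replicate 1 (x axis) and replicate 2 (y axis), with a point for each gene and colours for 3 gene lists. The NR4A genes lie at larger x than y, with Nr4a3 near 0 on the y axis, and genes of the CREB and early lists lie on all sides of the origin. Both axes subtract the same IL-33 mean, so a spread along the diagonal is built in.

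Genes tied to NR4A activity in lymphocytes, among them checkpoint receptors and factors of exhausted T cells, had a negative median. Of 24 listed, 14 were tested, 2 were higher in both Ang II libraries (14.3%, 1 of them under 1 FPKM with IL-33) and 7 lower in both (50%, 2 of them under 1 FPKM with Ang II). The median difference was -1.42 on the log2(FPKM + 1) scale, with -1.49 and -0.43 in the separate Ang II libraries. Pdcd1, which encodes the inhibitory receptor PD-1, stood at 531 and 545 FPKM under IL-33 alone, against 123 and 281 FPKM with Ang II, a difference of -1.53 (limma adjusted p = 0.76). Tnf stood at 60.8 and 63.9 FPKM against 0 and 27.7 FPKM. Batf, which encodes an AP-1 factor of effector lymphocytes, stood at 49.6 and 51.4 FPKM against 193 and 39.9 FPKM, and the granzyme gene Gzmb at 17.8 and 18.1 FPKM against 0 and 41.3 FPKM. Both overlapped. At an unadjusted p under 0.05 were Tnfsf10, the TRAIL gene, listed at 0 under IL-33 alone, against 5.57 and 5.92 FPKM with Ang II, and Tcf7, at 6.46 and 6.23 FPKM against 0.04 and 0.11 FPKM. These 2 of the 14 tested were named after their values were seen. Tnfsf10 passed the filter only through Ang II, and Tcf7 only through IL-33. Tox, which encodes a factor that works with NR4A proteins in exhausted T cells and was likewise named afterwards, stood at 26.9 and 28.4 FPKM against 9.98 and 18.8 FPKM.

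Genes known as NR4A targets in other tissues were mostly silent, with 13 of 22 listed at 0 in all 4 libraries, among them Th, the tyrosine hydroxylase gene that Nurr1 serves in dopamine neurons, and Cyp11b2, the aldosterone synthase gene. Of the 6 tested, 4 were higher in both Ang II libraries (66.7%) and 2 lower in both (33.3%). Of the higher genes 3, Spp1, Pomc and Slc18a2, had an IL-33 mean under 1 FPKM and passed the filter only through Ang II, as Star did only through IL-33, so these counts tell nothing of the list. Pomc, the pro-opiomelanocortin gene on which Nur77 acts in pituitary cells, was listed at 0 with IL-33 alone, against 41.0 and 45.3 FPKM with Ang II (limma adjusted p = 0.17). Spp1, the osteopontin gene and a Nurr1 target in bone cells, stood at 0.28 and 0.51 FPKM against 130 and 149 FPKM, a difference of 6.65 (limma adjusted p = 0.17). Nfkbia, which encodes the NF-kB inhibitor that Nur77 can induce, stood at 1190 and 1198 FPKM against 1850 and 1264 FPKM. Birc3, an inhibitor of apoptosis gene that NOR1 can induce, went the other way, at 72.6 and 74.3 FPKM against 9.51 and 56.6 FPKM. At an unadjusted p under 0.05 were Spp1, Pomc and the steroidogenic gene Star, which was named afterwards and stood at 4.38 and 3.89 FPKM against 0 in both Ang II libraries. Of the 16 listed genes with a promoter window 0 held an NBRE, which allows nothing to be said of elements outside that window.

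The genes whose profile over the 4 libraries was most like each member's were found by Euclidean distance of centred log2(FPKM + 1), among 9212 other genes. For Nr4a1 they were Trmt1l (a distance of 0.0334), Dnajb9 (0.0343) and the interferon-induced gene Mx1 (0.0639). Dnajb9, which encodes a chaperone of the endoplasmic reticulum, stood at 11.6 and 11.3 FPKM under IL-33 alone, against 195 and 119 FPKM with Ang II. Of the 3 it was the closest to Nr4a1 in level, the other 2 being at or near 0 with IL-33. For Nr4a2 they were the pseudogene Rpl10-ps3, Swt1 and Psmd5, at distances of 0.0914 to 0.129. For Nr4a3 they were Ammecr1l, Slc35a5 and Pip4k2c, at 0.105 to 0.112. These 3 stood at 0 to 0.17 FPKM with IL-33. With Ang II they stood at 6.93 to 7.53 FPKM in replicate 1 and 0.03 to 0.22 FPKM in replicate 2. They passed the filter on low values only through Ang II, as did Trmt1l, Mx1 and Swt1 (0.01 and 0 FPKM with IL-33). Their likeness to a member is thus on the scale with 1 FPKM added, not in level. The measure rests on 4 libraries, of which the IL-33 pair nearly coincides.

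Markers of ILC2s and of other cells were read beside these values. Of 16 ILC2 markers, 14 were above 0 in all 4 libraries, with summed levels of 4373 to 4400 FPKM with IL-33 and 5529 to 6219 FPKM with Ang II. The higher sum lay mostly in Calca, which encodes the neuropeptide CGRP, at 1989 and 1995 FPKM against 3532 and 3138 FPKM. Id2, the next in level, overlapped between groups, as given above. Of the 14 tested, 5 were higher in both Ang II libraries (35.7%, against 24.4% of all tested genes). Lower in both was 1 (7.14%, against 33.5%), and 8 overlapped. The lower one, the type 2 cytokine gene Il13, named after its values were seen, stood at 70.1 and 73.7 FPKM against 16.3 and 0.53 FPKM. Il5 was listed at 0 in all 4. T cell markers, 13 genes whose type also uses the NR4A family, summed to 1355 FPKM in both IL-33 libraries and to 966 and 469 FPKM with Ang II. All 11 tested T cell markers were lower in both Ang II libraries (100%), 5 of them with an Ang II mean under 1 FPKM, and Cd4 and Cd6 were at or near 0 there. The most abundant, Trbc2, stood at 710 and 717 FPKM against 541 and 211 FPKM, and Trbc1 at 314 and 306 FPKM against 267 and 220 FPKM. T cell markers were thus lower where Nr4a1 was higher, and their part in the NR4A values was not tested.

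Macrophage, monocyte and dendritic cell markers, 14 genes of another type that uses the family, summed to 2225 to 2260 FPKM under IL-33 alone, against 2063 and 980 FPKM with Ang II. Of the 8 tested, 3 were higher in both Ang II libraries (37.5%, 2 of them under 1 FPKM with IL-33). Lower in both were 4 (50%, 1 of them under 1 FPKM with Ang II), and Itgax and Flt3 were listed at 0 in all 4 libraries. Lyz2 stood at 1700 and 1668 FPKM against 1016 and 683 FPKM, and Chil3 at 212 and 210 FPKM against 696 and 158 FPKM. Chil3 overlapped between groups. Named after their values were seen, Marco, a scavenger receptor gene of macrophages, reached 191 and 23.2 FPKM with Ang II from a listed 0 in both IL-33 libraries, and was higher in replicate 1 as the NR4A genes were. Cd14 and Adgre1 (F4/80) went the other way, Cd14 at 152 FPKM in both IL-33 libraries against 0.51 and 18.2 FPKM, and Adgre1 at 24.2 and 23.6 FPKM against 0.06 and 0.04 FPKM. The part of these cells in the NR4A values was not tested. B cell markers, 6 genes, summed to 18.5 to 20.8 FPKM under IL-33 alone, against 93.0 and 3.10 FPKM with Ang II, with Cd79b at 50.5 and 0.28 FPKM and Ighm at 41.0 and 1.18 FPKM. These 2 genes carry the sum, which was highest in Ang II replicate 1, the library in which all 3 NR4A genes were highest. Cd79a was lower in both Ang II libraries (2.52 and 2.46 FPKM against 0.31 and 0.19 FPKM), and Ms4a1 was highest in replicate 2 (1.30 FPKM). Their part in the NR4A values was not tested.

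The sums of the other marker lists were as follows. Neutrophil markers (8 genes) summed to 203 to 210 FPKM under IL-33 alone, against 39.8 to 63.3 FPKM with Ang II, led by S100a8 and S100a9. Epithelial and stromal markers (11 genes) summed to 376 to 387 FPKM against 81.6 to 211 FPKM, led by Scgb1a1 and Sftpc, with Cdh5, Krt8 and Sftpb listed at 0. NK cell and ILC1 markers (8 genes) summed to 34.8 to 35.4 FPKM against 0.10 to 13.3 FPKM, with Ncr1, Klrb1c and Tbx21 listed at 0. Nkg7 stood at 29.9 and 30.9 FPKM against 0 in both Ang II libraries, while Gzma, at 0.17 and 0 FPKM with IL-33, stood at 0.07 and 13.3 FPKM and made up the whole sum of Ang II replicate 2. Mast cell and basophil markers (8 genes) summed to 8.16 to 8.91 FPKM against 2.40 to 10.3 FPKM, led by Kit and Prss34, with Fcer1a, Mcpt4 and Ms4a2 listed at 0. Red blood cell and platelet markers (9 genes), led by Hba-a2 and Hba-a1, summed to 24954 to 25156 FPKM against 1601 to 3844 FPKM.

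Heat shock genes, which tissue dissociation raises along with early genes such as Nr4a1, were measured for the same reason. Of 13 listed, 11 were tested, 5 were higher in both Ang II libraries (45.5%, 2 of them under 1 FPKM with IL-33) and 4 lower in both (36.4%). The median difference was 0.16 on the log2(FPKM + 1) scale. The most abundant members were close between groups, Hspa8 at 621 and 623 FPKM against 706 and 686 FPKM and Hsp90ab1 at 285 and 281 FPKM against 318 and 315 FPKM. Hsp90aa1 stood at 198 and 201 FPKM against 192 and 380 FPKM, and Hspe1 at 95.2 and 94.8 FPKM against 59.9 and 66.7 FPKM. The other members were named after their values were seen. Higher in both Ang II libraries were Hspa1a at 0.02 and 0 FPKM against 12.2 and 32.0 FPKM, Hspa1b at 0.91 and 0.55 FPKM against 7.10 and 7.78 FPKM, and Dnajb1 at 23.2 FPKM in both IL-33 libraries against 120 and 61.2 FPKM. Hsph1 overlapped (3.90 and 3.51 FPKM against 13.0 and 3.47 FPKM), and Dnajb4 was lower in both (5.76 and 5.93 FPKM against 3.20 and 0.87 FPKM), as were Dnaja1 and Hspd1. Hspb1 and Bag3 were at or near 0 in all 4 libraries. The part of these genes in the NR4A values was not tested.

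Genes that cells in general use gave the level of scatter beside which these lists stand. All 16 listed were tested, 3 were higher in both Ang II libraries (18.8%) and 6 lower in both (37.5%, 1 of them under 1 FPKM with Ang II). The median difference was -0.12 on the log2(FPKM + 1) scale.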

How the data were processed

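RNA was amplified to cDNA with a SMARTer kit and sequenced in pairs on a NovaSeq, per the labels' protocols. The authors deposited FPKM with 2 decimals, per the file headers. Of software, the submitters' processing notes list HISAT, StringTie and edgeR, and as build mm10; what each did is not stated. The IL-33 libraries were averaged because they differed far less than the Ang II pair. A gene was tested if its average over the IL-33 mean and both Ang II libraries reached 1 FPKM, on log2(FPKM + 1) with limma 3.58.1 (R 4.3.3, mean-variance trend, two-sided, Benjamini-Hochberg, threshold 0.05). On simulated data for this comparison (9215 genes, 10 runs per size), it recovered a median of 2.5% of genes changed by 2 on the log2 scale and 64.2% of those changed by 4, among well-expressed genes. Over the runs recovery ranged from 0% to 10.5% and from 35.5% to 83%. Unchanged genes called in a run numbered 0 to 37 and 2 to 57. The simulated noise was normal, with an SD taken from the Ang II pair and smoothed over genes of like level. The simulated IL-33 sample got the same noise. In the real libraries genes of like level differ in spread, so these shares are not the power of the real fit. In this fit the only spread is that between the Ang II libraries, moderated over genes, and no IL-33 scatter enters p. Since separate cultures or animals are not documented, that spread may be technical. Each library was amplified from few cells. Motifs and identities were computed with Python 3.11.15 and Biopython 1.88. Identifiers matched GENCODE M21 for 55141 of 55401 models.

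Members and lists were chosen with earlier results of these data known. The text names the 3 members, the 4 most abundant tested genes of each list, the 2 most abundant of each marker list and the 3 nearest profiles of each member. Protein sequences were not used here. Alternatives were other pseudocounts, filters and scalings, IL-33 libraries as replicates, limma without a trend, and each library left out.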

Additional observations from a re-analysis of the deposited data

How the results depend on the processing

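Over the 14 alternatives Nr4a1, Nr4a2 and Nr4a3 stayed higher with Ang II. With all libraries kept, their differences ranged over 3.50 to 3.72, 1.91 to 2.32 and 0.98 to 1.92 on the log2 scale. Leaving out a library gave 3.30 to 3.99, 1.47 to 2.98 and 0.17 to 3.01, the lowest without Ang II replicate 1. Depth is unknown, so it could not be weighed at low levels such as those of Nr4a3.

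Nothing in the labels ties same-numbered samples of the groups to each other. Their deviations from the group means correlated at -0.02. The near-identical IL-33 pair leaves little deviation to correlate, so this value cannot tell whether samples were paired. With both IL-33 libraries as replicates and the replicate block, limma called 0 genes higher and 0 lower. Without the block it called 457 higher and 1090 lower, in a fit whose IL-33 spread comes from the near-identical pair. With an IL-33 library left out, 2440 and 2500 genes had both Ang II libraries higher. With an Ang II library left out the count is of genes higher in the remaining one, 3688 and 4315. The same counts of lower genes were 3230 to 4277. At a mean of at least 5 FPKM, 1927 were lower.

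The list medians depended on the settings, and the cause was not tested. With no filter they were 0.017 for regulators, 0.073 for coregulators (a reversal), 0.035 for early genes, -0.029 for lymphocyte genes, 0.014 for targets of other tissues and 0.38 for other receptors. At a mean of at least 5 FPKM they were -0.063 for regulators and -0.031 for early genes (both reversals), 2.69 for targets of other tissues, 0.15 for other receptors and 0.30 for heat shock genes. With a pseudocount of 0.1 FPKM the targets of other tissues were at 2.93 and other receptors at 2.09, and with 5 FPKM other receptors were at 0.42, targets of other tissues at 0.80, lymphocyte genes at -0.67 and early genes at 0.11. Rescaling to the same sum gave 0.22 for early and 0.23 for heat shock genes, by the median ratio 0.084 and 0.0998, and without haemoglobin 0.14 for early genes. With a library left out, which also changes the genes tested, medians ran from 0.12 to 0.43 for regulators, -0.64 to -0.23 for coregulators, -0.015 to 0.29 for CREB targets, -1.59 to -0.53 for lymphocyte genes, 0.63 to 2.14 for targets of other tissues, 1.15 to 1.67 for other receptors and 0.14 to 0.17 for heat shock genes. Early genes ran from -0.067 to 0.40, the lowest without IL-33 replicate 1, a reversal.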
